A study of Mus musculus with 8 samples.

Results

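Receptors and planar polarity proteins that carry Wnt signals without β-catenin were examined as 10 genes among the 18770 listed in the expression table. They were chosen by gene symbol as Ror1, Ror2, Ryk and Ptk7, which encode receptors, Vangl1, Vangl2, Celsr1, Celsr2 and Prickle1, which encode core components of planar cell polarity, and Dvl2, which encodes a cytoplasmic adaptor. In planar cell polarity, Celsr cadherins join neighbouring cells, Frizzled and Dishevelled proteins collect on one side of each cell, and Vangl and Prickle proteins collect on the opposite side. Ror, Ryk and Ptk7 receptors bind Wnt ligands or act with them and can pass signals to this machinery. In mouse skin, this pathway is known for aligning hair follicles along the body axis, with Vangl2, Celsr1 and Fzd6 among the genes required.

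Alpinetin (AP), a plant flavonoid, was applied to depilated dorsal skin of C57BL/6 wildtype male mice (C57BL/6J in the study's methods) aged 7 to 8 weeks, at 3 mg/ml in 20 µl of 65% ethanol. Vehicle control (VC) mice received 20 µl of 65% ethanol alone, and both solutions were given daily from the day after depilation until skin was taken at D4. The interfollicular epidermis was removed, mRNA of the remaining dermis with hair follicles was sequenced, and 4 mice per group entered the comparison. The 8 library columns, numbered 1 to 4 within AP and within VC, could not be tied to individual mice. Values are normalized counts, which are gene counts divided by 1 size factor per library. Reads counted on genes numbered 6454563 to 7264151 per VC library and 8507783 to 11190113 per AP library. Mitochondrially encoded genes took 42.1% to 54.3% of these reads with vehicle and 5.32% to 11.1% with alpinetin. Without them, 3080758 to 3762217 reads were left per VC library and 7561598 to 10594787 per AP library, so low values were counted less precisely in the VC group.

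Celsr1 and Celsr2 were higher in the AP group, and no member was lower at the same threshold. All 10 genes passed the filter on low values, at least 3 normalized counts in at least 4 libraries, as did 15964 genes in all. Fold changes are AP over VC of log2(normalized count + 1), tested by limma with moderated variances that follow intensity, and Benjamini-Hochberg adjustment over the 15964 genes. At an adjusted p under 0.05, 2 of the 10 members were higher and 0 were lower, where 6.33% of all genes tested were higher and 4.0% were lower. At an unadjusted p under 0.05, 5 members passed, as did 30.3% of all genes. With the study's thresholds (unadjusted p under 0.01, change over 1.5-fold) put on the limma fit, the same 2 members were higher and 0 were lower, against 8.26% and 5.32% of all genes. The study put them on DESeq2 p-values, and with DESeq2 on the recovered reads 3 members, Ror1 being the added gene, were higher and 0 lower, against 9.83% and 7.35% of all genes. For 1 member, Celsr1, every AP library lay above every VC library, and for 0 members every AP library lay below, where 10.3% and 8.91% of all genes did so. The median log2 fold change of the members was 0.57, with 7 above 0 and 3 below, and that of all genes was 0.06, with 53.5% above 0. At an adjusted p under 0.05, DESeq2 called 3 members higher and 0 lower, against 10.5% and 8.53% of all genes. By edgeR these were 1 and 0, against 6.28% and 4.46%, and by limma-voom 1 and 0, against 4.48% and 4.53%.

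**Figure D1:**
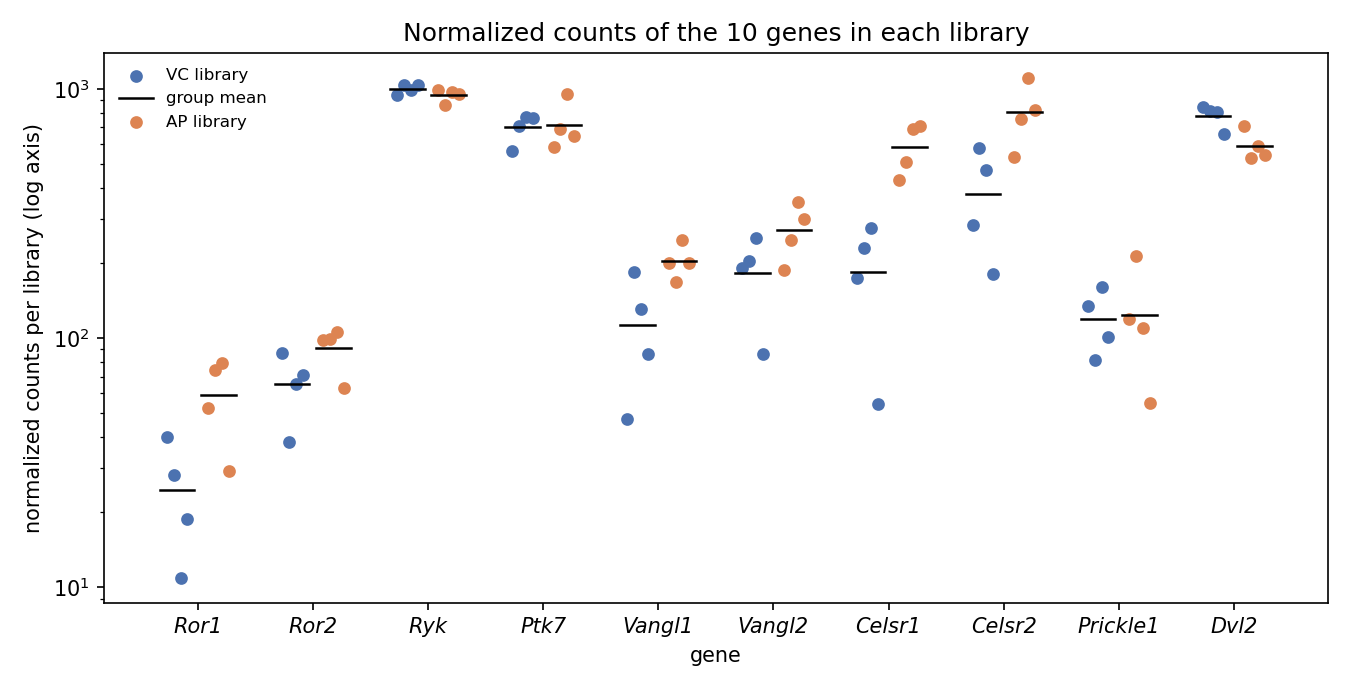
Normalized counts of the 10 genes on a log axis, with a point for each library of the VC group (blue) and the AP group (orange) and a black line at each group mean. The points of Celsr1 are separate, from 54.4 to 276 with vehicle and from 432 to 707 with alpinetin, and those of the other genes overlap.

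Celsr1 encodes an atypical cadherin with a G protein-coupled receptor-like membrane part and is required for the tilt of hair follicles. Celsr1 (ENSMUSG00000016028, mm10, chr15:85898929-86033777, minus strand) had 175, 231, 276 and 54.4 normalized counts over VC.1 to VC.4, then 432, 507, 689.6 and 707 over AP.1 to AP.4. The lowest AP library exceeded the highest VC library, and VC.4 was the lowest of all 8. The means were 184 ± 95.7 with vehicle and 584 ± 136 with alpinetin (SD, n = 4 mice each). Its log2 fold change of 1.86 (SE 0.42, 95% interval 0.94 to 2.78) was the largest of the 10 genes, with an adjusted p of 0.0236 from limma and p = 0.0286 by a two-sided exact permutation test, which is the lowest this design can give. In bulk samples, fewer cells of a type and less RNA per cell cannot be told apart. Over 22 alternative settings, the adjusted p of Celsr1 ranged from 8.00e-04 to 0.0758 and was under 0.05 in 17. It was 0.0533 without AP.2, 0.0758 without AP.3, 0.0683 without AP.4 and 0.0689 without the intensity trend. Without VC.4 the log2 fold change of Celsr1 was 1.35, the lowest of the fits with a library left out, which reached up to 2.13.

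Celsr2 encodes a cadherin of the same family. Celsr2 (ENSMUSG00000068740, chr3:108390851-108415552, minus strand) had 284, 579, 472 and 180.0 normalized counts over VC.1 to VC.4, then 535, 758, 1106 and 825 over AP.1 to AP.4. The groups overlapped, since AP.1 lay under VC.2, while VC.4 and VC.1 were lowest and AP.3 was highest. The means were 379 ± 180.3 with vehicle and 806 ± 235 with alpinetin (SD, n = 4 mice each), a log2 fold change of 1.18 (SE 0.34, 95% interval 0.44 to 1.92). The adjusted p from limma was 0.0485, close to the threshold, and the exact permutation test gave p = 0.0571. Over the alternatives the adjusted p of Celsr2 ranged from 0.00222 to 0.177 and was under 0.05 in 9 of 22. It was 0.107 without VC.1, 0.0825 without VC.4, 0.0987 without AP.2, 0.140 without AP.3, 0.111 without AP.4, 0.0582 with edgeR and 0.0523 with limma-voom. Without VC.4 the log2 fold change of Celsr2 was 0.87, the lowest of the fits with a library left out, which reached up to 1.43.

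The proteins Vangl1 and Vangl2 span the membrane and recruit Prickle. Vangl1 (ENSMUSG00000027860, chr3:102153583-102204693) had 47.3, 185, 131 and 86.3 normalized counts over VC.1 to VC.4, then 201, 168, 247 and 200.3 over AP.1 to AP.4. The AP libraries lay close together, and AP.2 alone fell within the VC range. The log2 fold change of Vangl1 was 1.01 (SE 0.36, 95% interval 0.23 to 1.79), with an adjusted p of 0.0862 and an exact permutation p of 0.0571. It passed 0.05 without VC.2 (1.30, adjusted p = 0.0371) and with scaling by total reads, and otherwise did not, with a range from 0.00450 to 0.242. Without VC.1, the lowest library, the log2 fold change of Vangl1 was 0.66 (adjusted p = 0.150). Vangl1 shares 8 exonic bases with an antisense gene, Gm16160. Vangl2 (ENSMUSG00000026556, chr1:172000960-172028444) had 191, 204, 251 and 86.3 normalized counts over VC.1 to VC.4, then 187, 248, 351 and 299.7 over AP.1 to AP.4. The groups overlapped widely, and VC.4 was again the lowest library. The log2 fold change of Vangl2 was 0.63 (adjusted p = 0.205, SE 0.32), and its interval from -0.07 to 1.33 held 0. Without VC.4 the log2 fold change was 0.30. Prickle1 encodes a LIM-domain protein that acts with Vangl. Prickle1 (ENSMUSG00000036158, chr15:93499114-93595891) had 135, 81.3, 159.8 and 101 normalized counts over VC.1 to VC.4, then 119, 214, 109.6 and 55.1 over AP.1 to AP.4. Both the highest and the lowest of the 8 values were in the AP group. Its log2 fold change of -0.05 (SE 0.38, adjusted p = 0.943) had an interval from -0.87 to 0.77, and its sign changed with scaling by total reads, with edgeR and DESeq2, and without VC.1, VC.3 or AP.4.

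Ror1 and Ror2 are receptor tyrosine kinases that bind Wnt5a. Ror1 (ENSMUSG00000035305, chr4:100095791-100444765) had 40.0, 28.1, 10.9 and 18.8 normalized counts over VC.1 to VC.4, then 52.2, 74.4, 79.2 and 29.3 over AP.1 to AP.4. These values rest on 8 to 22 reads in the VC libraries and on 41 to 159 in the AP libraries, and AP.4 lay within the VC range. The log2 fold change of Ror1 was 1.28 (SE 0.47, 95% interval 0.26 to 2.30), with an adjusted p of 0.0935 and an exact permutation p of 0.0571. With DESeq2 on the recovered reads the adjusted p was 0.0393, over a range from 0.00317 to 0.247. Ror1 was among the Wnt genes that the study chose for display from these same libraries, so its direction here is not independent evidence. Ror2 (ENSMUSG00000021464, chr13:53109312-53286124) had 87.3, 38.4, 65.5 and 71.3 normalized counts over VC.1 to VC.4, then 97.9, 99.2, 106 and 62.9 over AP.1 to AP.4. In the AP group, 3 libraries lay above all VC libraries and AP.4 lay below VC.3. The log2 fold change of Ror2 was 0.51 (adjusted p = 0.291, SE 0.31), and without VC.2, its lowest library, it was 0.27.

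Ryk and Ptk7 are receptors whose kinase domains lack activity. Ryk (ENSMUSG00000032547, chr9:102834917-102908305) had 946, 1036, 994 and 1033 normalized counts over VC.1 to VC.4, then 990.0, 862, 975 and 957 over AP.1 to AP.4. This was the steadiest of the 10 genes, with means of 1002 ± 42.1 with vehicle and 946 ± 57.8 with alpinetin (SD, n = 4 mice each). The log2 fold change of Ryk was -0.08 (adjusted p = 0.693, SE 0.13), and its interval from -0.37 to 0.20 leaves out a change as large as that of Celsr1, although with scaling by total reads it was 0.79. Ptk7 (ENSMUSG00000023972, chr17:46564471-46629504) had 566, 712, 773 and 763 normalized counts over VC.1 to VC.4, then 585, 687, 951 and 649 over AP.1 to AP.4. The VC range lay within the AP range except for VC.1, and AP.3 was the highest. Its log2 fold change was 0.02 (95% interval -0.38 to 0.41, adjusted p = 0.965, SE 0.18), and it was below 0 with upper-quartile factors, with reads drawn down to equal totals, with the transcript length trend removed, and without VC.1 or AP.3.

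Dvl2 links Frizzled receptors to both the β-catenin and the planar polarity branch. Dvl2 (ENSMUSG00000020888, chr11:70000595-70012301, plus strand) had 848, 813, 811 and 656 normalized counts over VC.1 to VC.4, then 710.0, 526, 591 and 541 over AP.1 to AP.4. In the AP group, 3 libraries lay below all VC libraries, and AP.1 lay above VC.4. The means were 782 ± 85.5 with vehicle and 592 ± 83.4 with alpinetin (SD, n = 4 mice each). The log2 fold change was -0.40 (SE 0.15, 95% interval -0.74 to -0.07), with an adjusted p of 0.107 and an exact permutation p of 0.0571. It was 0.47 with scaling by total reads, and -0.43 relative to the median of all genes under that scaling. Its adjusted p spanned 0.0407 to 0.242 among the alternatives and passed 0.05 only with the transcript length trend removed (-0.64, adjusted p = 0.0407). Dvl2 shares 1151 exonic bases, 18.3% of its exons, with Acadvl, an acyl-CoA dehydrogenase gene on the opposite strand, and the sources used here do not state whether counting used strand. Of the 50-base words of its longest transcript, 0.802% occur in another gene, the largest share among the members. Acadvl itself had 664, 919, 673 and 743 normalized counts over VC.1 to VC.4, then 826, 654, 634 and 655 over AP.1 to AP.4, a log2 fold change of -0.11 (adjusted p = 0.674, SE 0.16). Its groups overlapped, and its part in the values of Dvl2 was not tested.

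Whether paralogs changed by different amounts was tested on their log2 difference within each library, which the scaling of a library hardly touches. Celsr1 minus Celsr2 was -0.70, -1.33, -0.77 and -1.71 over VC.1 to VC.4, then -0.31, -0.58, -0.68 and -0.22 over AP.1 to AP.4. Every AP library lay above every VC library, with the values of Celsr1 closer to those of Celsr2. The mean difference was -1.13 ± 0.48 with vehicle and -0.45 ± 0.22 with alpinetin (SD, n = 4 mice each), apart by 0.68 (two-sided exact permutation test, p = 0.0286, adjusted over 3 pairs p = 0.0857). A single pair at the smallest p of this design cannot go lower after adjustment. Ror1 minus Ror2 was -1.11, -0.44, -2.48 and -1.87 over VC.1 to VC.4, then -0.89, -0.41, -0.42 and -1.08 over AP.1 to AP.4. The group means were apart by 0.77, with VC.2 inside the AP range (exact permutation p = 0.114, adjusted p = 0.171). Vangl2 minus Vangl1 was 1.99, 0.14, 0.93 and 0.00 over VC.1 to VC.4, then -0.10, 0.56, 0.51 and 0.58 over AP.1 to AP.4. AP minus VC was -0.38 (exact permutation p = 0.543), and without VC.1, whose Vangl1 value was the lowest, it was 0.03.

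Levels of different genes were compared per kilobase of the longest annotated transcript, and on this scale the receptors spanned the whole range. In the VC group, Ryk stood first at 326 ± 13.7 normalized counts per kilobase, followed by Ptk7 at 166 ± 22.6 and Dvl2 at 155 ± 17 (SD, n = 4 mice each). Ptk7 and Dvl2 lay within their spread of each other. A second tier held Celsr2 at 35.7 ± 17, Prickle1 at 28.8 ± 8.41 and Vangl2 at 28 ± 10.7, then Vangl1 at 17.2 ± 9.06, Celsr1 at 16.9 ± 8.80 and Ror2 at 16.5 ± 5.11 normalized counts per kilobase. Neighbours in this tier did not differ beyond their spread. Ror1 was last, at 4.24 ± 2.17. In the AP group, Ryk (308 ± 18.8), Ptk7 (169.5 ± 38.0) and Dvl2 (118 ± 16.6) kept these places, and Celsr2 followed at 76.1 ± 22.2 normalized counts per kilobase. Celsr1 stood next at 53.7 ± 12.5, ahead of Vangl2 at 41.6 ± 10.7, Vangl1 at 31.2 ± 4.97 and Prickle1 at 30 ± 15.9, with Ror2 at 23.0 ± 4.87 and Ror1 at 10.2 ± 3.97. In that order, Celsr1 and Vangl2 lay within their spread of each other.

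The members that rose are the ones with the longest transcripts, 10879 nt for Celsr1 and 10598 nt for Celsr2, and fold changes in these libraries went up with transcript length. Among the 4032 genes tested whose longest transcript was under 2000 nt, the median log2 fold change was -0.22, with 4.04% higher and 7.51% lower by the same test. Among the 361 genes of 10000 nt or more it was 0.56, with 24.9% higher and 1.66% lower. Both Celsr fold changes were above the median of this longest class. With the trend on length removed within each library, Celsr1 had a log2 fold change of 1.34 (adjusted p = 0.0570) and Celsr2 of 0.66 (adjusted p = 0.177), so neither passed the threshold. Of the other members, Vangl1 (6531 nt) then had 0.65, Vangl2 (6528 nt) 0.27, Ror1 (5762 nt) 0.98 and Ryk, the shortest at 3072 nt, -0.11.

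The sign of the log2 fold change of 4 members depended on scalings that shift all genes, that of Ptk7 on upper-quartile factors as given above. Relative to the median of all genes under those scalings, these 4 stayed below 0. Scaling by total reads, in which mitochondrially encoded reads count toward the library, moved the all-gene median from 0.06 to 0.90 and the share of higher genes among those called from 61.3% to 99.3%. Under it, 8 of 10 members were called higher and 0 lower, where 53.7% of all genes tested were called higher and 0.403% lower, and the fold changes of Ryk, Prickle1 and Dvl2 turned positive. Relative to that median, Celsr1 stood at 1.82, Celsr2 at 1.15, Ror1 at 1.22, Ryk at -0.11, Prickle1 at -0.09 and Dvl2 at -0.43. With the deposited size factors, Ryk, Prickle1 and Dvl2 stood at -0.14, -0.11 and -0.46 relative to the all-gene median. With upper-quartile factors, 49.9% of the genes called were higher (5.55% of all genes tested were higher and 5.57% lower), and Celsr1 was the 1 member called. Ptk7 stood at -0.045 relative to the all-gene median with these factors and at -0.043 with the deposited ones.

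**Figure D2:**
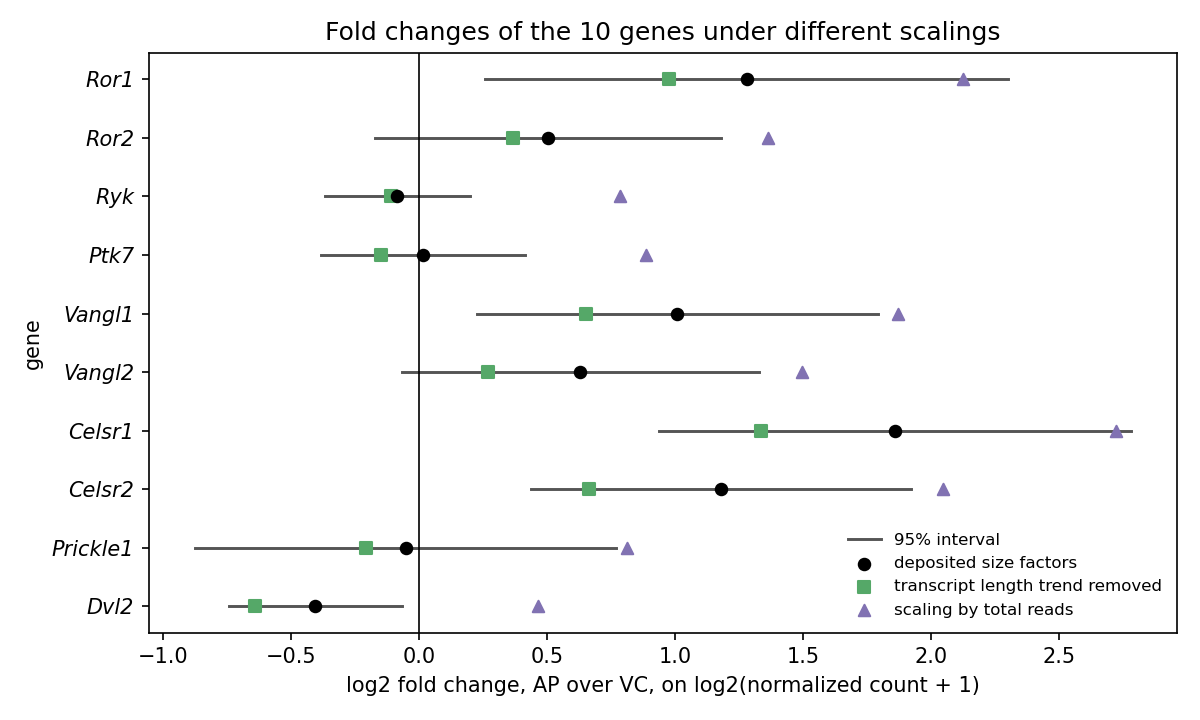
Log2 fold changes of the 10 genes, AP over VC, with the deposited size factors (black points, with 95% intervals), with the transcript length trend removed (green squares) and with scaling by total reads (purple triangles). Celsr1 lies at 1.86, 1.34 and 2.72, and Dvl2 at -0.40, -0.64 and 0.47.

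Markers of cell types were set beside these values, since planar polarity genes are expressed in the epithelium of skin. Of 10 markers of basal and follicle keratinocytes, 4 were higher at an adjusted p under 0.05 and 0 were lower, with all 10 above 0 and a median log2 fold change of 0.98. Their summed level was 30444, 84243, 53687 and 25538 normalized counts over VC.1 to VC.4, then 56408, 56394, 105135 and 148003 over AP.1 to AP.4, most of it Krt14 and Krt5. VC.4 and VC.1 were lowest, as for Celsr2, and no marker of this list was at 0 in any library. Relative to the mean log2 level of this list, Celsr1 stood at -3.14 ± 0.52 with vehicle and -2.23 ± 0.22 with alpinetin (SD, n = 4 mice each), and the groups did not overlap. Celsr2 stood at -2.01 ± 0.19 with vehicle and -1.78 ± 0.35 with alpinetin, Vangl1 at -3.79 ± 0.66 with vehicle and -3.73 ± 0.38 with alpinetin and Ror1 at -5.92 ± 1.0 with vehicle and -5.59 ± 0.96 with alpinetin, and for these the groups overlapped. Dvl2 stood at -0.84 ± 0.47 with vehicle and -2.19 ± 0.59 with alpinetin, and Ryk at -0.47 ± 0.59 with vehicle and -1.51 ± 0.47 with alpinetin. For both, every AP library was below every VC library, although the log2 fold change of Ryk itself was near 0. The part of keratinocyte content in the members' values was not tested.

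The interfollicular epidermis had been removed, yet markers of its suprabasal layers were measured in all libraries and differed between the groups. Of 12 such markers, 10 were higher and 0 lower, with a median of 3.11. They summed to 6412, 13127, 9076 and 5903 normalized counts over VC.1 to VC.4, then 44029, 41856, 122726 and 172509.6 over AP.1 to AP.4, with Krt10 the most abundant and none at 0. AP.3 and AP.4 were highest and every AP library lay above every VC library, while Celsr1 relative to this list stood at -0.96 ± 0.70 with vehicle and -1.91 ± 0.85 with alpinetin, with groups that overlapped. Of 5 wound and companion layer markers, 2 were higher, with a median of 2.10 and sums of 6619.6, 8505, 8141 and 3904 normalized counts over VC.1 to VC.4, then 6940.2, 17861, 37076 and 26897 over AP.1 to AP.4. Krt17 was the most abundant, and Krt6b was at 0 in VC.1. The part of these cells in the members' values was not tested.

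Markers of the dermis, the tissue the study describes, were abundant in both groups. The 10 markers of dermal fibroblasts, with Col1a1 the most abundant, had a median of 0.28, and 0 passed the test in either direction. They summed to 122889, 83278, 85354 and 225615 normalized counts over VC.1 to VC.4, then 257149, 191311, 138271 and 99869 over AP.1 to AP.4. Of 8 dermal papilla markers, 5 were lower and 0 higher, with a median of -1.31 and sums of 2343, 2526, 3097 and 3765 normalized counts over VC.1 to VC.4, then 1087, 1032, 1565 and 988 over AP.1 to AP.4. Crabp1 was the most abundant, and every AP library was below every VC library in the list's mean log2 level. No marker of either list was at 0. Of 6 smooth muscle and pericyte markers 3 were higher (median 1.12), with Des the most abundant and sums of 3942, 6360.3, 4458 and 4892 normalized counts over VC.1 to VC.4, then 8246, 7256, 3287 and 4300.0 over AP.1 to AP.4. Of 6 endothelial markers 2 were higher (median 1.41), with Vwf the most abundant and sums of 991, 949, 1921 and 1693 normalized counts over VC.1 to VC.4, then 2822, 7070.3, 2322 and 2725 over AP.1 to AP.4. In both lists every AP library was above every VC library in mean log2 level. The sums of the smooth muscle list overlapped, and Des, its most abundant gene, had a mean of 3515 normalized counts with vehicle and 1881 with alpinetin. Of 6 melanocyte markers 4 were lower (median -1.09), as were 2 of 5 Schwann cell markers (median -0.51). The 8 skeletal muscle markers (median -1.65, Acta1 the most abundant) summed to 42049, 65113, 33030.3 and 33559 normalized counts over VC.1 to VC.4, then 66406, 8325, 4969 and 10562 over AP.1 to AP.4, with AP.1 as high as the VC libraries and the other AP libraries far below them, and 0 passed the threshold. Hair matrix and shaft (6 markers, Krt85 not analysed here, -0.62), adipocytes (6 markers, 0.26) and leukocytes (6 markers, -0.68) had 0 markers past the threshold by limma. Of the 12 mitochondrially encoded genes tested, 10 were lower (mt-Atp8, at 0 in some libraries, was not tested), with a median of -3.38. The part of these cell types and of RNA composition in the members' values was not tested.

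The other genes of the pathway were taken from 6 lists of 64 genes, with 62 tested, of which 6 were higher and 3 lower at an adjusted p under 0.05, with a median log2 fold change of 0.26. Over all genes tested, 6.33% were higher and 4.0% lower, with a median of 0.06. Among 6 of 7 listed Wnt ligands that act in or near planar polarity (Wnt7a was not analysed here), 2 were higher and 0 lower, with a median of 0.26. Wnt7b, a ligand made by keratinocytes, had 63.7, 87.2, 113 and 39.4 normalized counts over VC.1 to VC.4, then 168, 139, 343 and 459.9 over AP.1 to AP.4, a log2 fold change of 1.79 (adjusted p = 0.0253, SE 0.42). The groups were apart, with AP.3 and AP.4 highest. Wnt11, a ligand known for non-canonical signaling, had 56.4, 31.0, 43.7 and 58.1 normalized counts over VC.1 to VC.4, then 82.0, 123, 152 and 80.1 over AP.1 to AP.4. All AP values were above all VC values, with AP.2 and AP.3 highest. A log2 fold change of 1.18 (adjusted p = 0.0386, SE 0.32) resulted. The study also named Wnt11 as upregulated in these same libraries, so its direction here is not independent evidence. The adjusted p of Wnt7b passed 0.05 in 4 of 8 fits on 7 libraries, failing without VC.1, VC.4, AP.3 or AP.4 (highest 0.0858), and that of Wnt11 in 2 of 8, without VC.4 or AP.1 (highest elsewhere 0.134). Over all 22 alternatives these adjusted p-values spanned 5.66e-04 to 0.0858 for Wnt7b and 0.00103 to 0.134 for Wnt11.

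Of 8 other core planar polarity genes tested (Celsr3 did not pass the filter), 0 were higher and 0 lower by limma, with a median of 0.08 and 4 of 8 above 0. For 2 of them every AP library lay above every VC library, and for 0 below, where 10.3% and 8.91% of all genes did so. The mean log2 level of all 9 listed genes ran from 6.61 to 6.96 with vehicle and from 7.01 to 7.12 with alpinetin, without overlap. This level includes Celsr3, which did not pass the filter and was at 0 in VC.1, VC.2 and VC.4. It therefore does not show whether the 8 tested genes alone were apart between the groups. Fzd6, a gene of this list, was among the Wnt genes that the study displayed as up-regulated from these same libraries. By limma Fzd6 did not pass the threshold, and with scaling by total reads it stood at 0.83 relative to the all-gene median. DESeq2 called 2 of the 8 higher, against 10.5% of all genes tested, and edgeR 1, against 6.28%. The most abundant was Scrib, a scaffold protein that binds Vangl2, with 437, 661, 628 and 416 normalized counts over VC.1 to VC.4, then 519, 538, 742 and 776 over AP.1 to AP.4, and its groups overlapped with a log2 fold change of 0.27 (adjusted p = 0.402, SE 0.21). Of 14 effectors downstream of Dishevelled, such as Rhoa, Rac1 and the Rock kinases, 1 was higher and 0 lower, with a median of 0.01. The gene was Map3k1, a kinase upstream of JNK, with 78.2, 177, 203 and 88.1 normalized counts over VC.1 to VC.4, then 250.2, 283, 390.1 and 369.8 over AP.1 to AP.4. The groups did not overlap, with a log2 fold change of 1.33 (adjusted p = 0.0265, SE 0.31). In the Fat and Dachsous system, a second set of cadherins that guides polarity, 1 of 7 genes was higher and 0 were lower, with a median of 0.64. Fat1, a giant cadherin, had 455, 519, 612 and 285 normalized counts over VC.1 to VC.4, then 676, 1118, 979.6 and 749.6 over AP.1 to AP.4, a log2 fold change of 0.94 (adjusted p = 0.0352, SE 0.24), and its groups did not overlap. With the transcript length trend removed, Fat1, at 14814 nt, had a log2 fold change of 0.35 (adjusted p = 0.219), and Map3k1 of 0.95 (adjusted p = 0.0646). Each of the pair kept its call only when VC.2, VC.3 or AP.1 was the library left out, and its adjusted p was highest without AP.3 (0.107 for Fat1 and 0.0877 for Map3k1). The span over all alternatives was 0.00129 to 0.219 for Fat1 and 0.00149 to 0.0877 for Map3k1.

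Of 14 genes of the Wnt calcium branch, 0 were higher and 1 was lower, with a median of 0.17. Nfatc4, a transcription factor activated by calcineurin, had 535, 256, 328 and 448 normalized counts over VC.1 to VC.4, then 273, 180.1, 179 and 149 over AP.1 to AP.4. Its groups overlapped through AP.1, and its log2 fold change was -0.98 (adjusted p = 0.0365, SE 0.26). Of 13 regulators, 2 were higher and 2 lower, with a median of 0.48. Nkd2 and Nkd1, which encode Naked cuticle proteins that bind Dishevelled and limit Wnt signaling, were the lower pair. Nkd2 had 473, 349, 527 and 469 normalized counts over VC.1 to VC.4, then 210.3, 236, 290.5 and 193 over AP.1 to AP.4, a log2 fold change of -0.96 (adjusted p = 0.0151, SE 0.19). Nkd1 had 227, 198, 217 and 227 normalized counts over VC.1 to VC.4, then 140.0, 159, 120.1 and 102 over AP.1 to AP.4, a log2 fold change of -0.75 (adjusted p = 0.0342, SE 0.19). For both, every AP library lay below every VC library. Scaling by total reads, which shifts all genes, gave log2 fold changes of -0.10 for Nkd2, 0.11 for Nkd1 and -0.11 for Nfatc4, and relative to the all-gene median under that scaling they stood at -1.0, -0.79 and -1.01. Adam17, a protease that can cleave Ptk7, had 280.1, 297, 304 and 294 normalized counts over VC.1 to VC.4, then 429, 454, 508 and 519 over AP.1 to AP.4. The VC libraries were nearly alike and all AP libraries were above them, with a log2 fold change of 0.69 (adjusted p = 0.0174, SE 0.14). Sec24b, a coat protein that carries Vangl2 out of the endoplasmic reticulum, had 229, 209.8, 309 and 255 normalized counts over VC.1 to VC.4, then 348, 439, 403 and 386 over AP.1 to AP.4. The groups did not overlap, and the log2 fold change was 0.66 (adjusted p = 0.0342, SE 0.17). With a library left out, the adjusted p stayed under 0.05 in 7 of 8 fits for Nkd2 (not without AP.4, 0.0508) and in 6 for Adam17 (not without AP.3, 0.0707, or AP.4, 0.0594). It did so only without VC.2 or AP.1 for Nkd1, only without VC.3 or AP.1 for Sec24b, and only without VC.2, VC.3 or AP.1 for Nfatc4, with the highest values without AP.3 (0.107, 0.107 and 0.106). Adjusted p-values over all alternatives spanned 2.03e-04 to 0.743 for Nkd2, 0.00457 to 0.689 for Nkd1, 0.00668 to 0.701 for Nfatc4, 1.31e-04 to 0.0707 for Adam17 and 8.52e-04 to 0.114 for Sec24b.

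**Figure D3:**
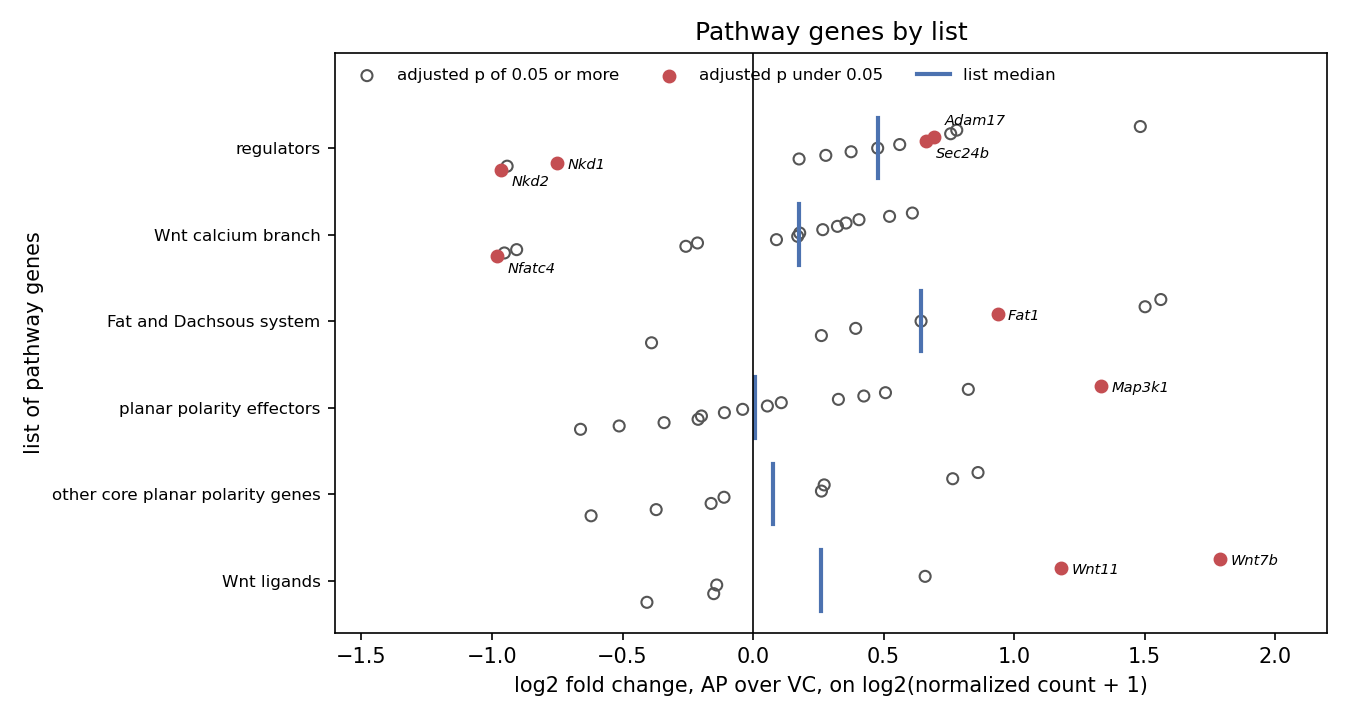
Log2 fold changes, AP over VC, of the 62 pathway genes tested, by list, with filled red points for an adjusted p under 0.05, open points for the others and a blue bar at each list's median. Red points lie on both sides of 0, from -0.98 for Nfatc4 to 1.79 for Wnt7b.

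Genes whose profile over the 8 libraries was most like that of the Celsr genes were found by the root mean square difference of centred log2 values, among 11256 genes with a mean of at least 50 normalized counts. The difference between the groups is part of these profiles, so similar patterns and fold changes follow from the choice of genes. For Celsr1 the closest were Syne2 (0.323), Fat2 (0.325) and Dsg2 (0.327). Syne2 encodes a nuclear envelope protein, Fat2 a cadherin of the Fat and Dachsous list, and Dsg2 a desmosomal cadherin. Fat2 had 218, 322, 198 and 58.1 normalized counts over VC.1 to VC.4, then 329, 395, 657 and 622 over AP.1 to AP.4, a log2 fold change of 1.5 (adjusted p = 0.0523, SE 0.44). Syne2 had a log2 fold change of 1.95 (adjusted p = 0.00738) and Dsg2 of 1.75 (adjusted p = 0.0361). Like Celsr1, Fat2 was lowest in VC.4 and highest in AP.3 and AP.4. For Celsr2 the closest were Fzd10 (0.164), Cldn1 (0.183) and Tet3 (0.186). Fzd10 encodes a Frizzled receptor, Cldn1 a tight junction protein and Tet3 a DNA demethylation enzyme. The log2 fold changes of these were 1.17 for Fzd10 (adjusted p = 0.0935), 1.15 for Cldn1 (adjusted p = 0.0391) and 1.10 for Tet3 (adjusted p = 0.0312). Fzd10, like Ror1, was among the Wnt genes that the study displayed from these libraries.

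The 250 bases upstream of the transcription start were read from RefSeq (GRCm38.p6) for 8 of the 10 members (entries for Celsr1 and Vangl1 were not found), and 3 are shown, for a called member, for the receptor with the largest fold change and for the member with the lowest. The 3 windows shown lie outside the annotated bounds of their own genes. Both strands of all 32851 promoter windows of this length were searched for CACGTG (an E-box), CTTTGA (a core of TCF/LEF sites), TGANTCA (an AP-1 site) and GGGCGG (a GC box). In the 3 windows shown, no match overlapped a match of another motif. CACGTG is in 6.02% of all windows, CTTTGA in 13.8%, TGANTCA in 6.75% and GGGCGG in 32.7%. The Celsr2 window (chr3:108415580-108415829, minus strand) holds none of these motifs, and 75.2% of its bases are G or C, where the median window has 52.4%. The Ror1 window (chr4:100095541-100095790, plus strand) holds CTTTGA 1 time, on its reverse strand and in capitals here, and GGGCGG 1 time. The Dvl2 window (chr11:70000342-70000591, plus strand) holds CACGTG 3 times, in capitals here, as do 0.0609% of all windows (20 of 32851, with 3 or more). It also holds GGGCGG 4 times and TGANTCA 1 time. A match describes the letters and not a bound site.
Celsr2: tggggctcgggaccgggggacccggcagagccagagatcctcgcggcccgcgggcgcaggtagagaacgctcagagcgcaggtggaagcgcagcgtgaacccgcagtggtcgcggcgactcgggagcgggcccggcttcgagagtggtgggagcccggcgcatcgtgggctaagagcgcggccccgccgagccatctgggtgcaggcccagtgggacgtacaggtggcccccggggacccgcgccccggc
Ror1: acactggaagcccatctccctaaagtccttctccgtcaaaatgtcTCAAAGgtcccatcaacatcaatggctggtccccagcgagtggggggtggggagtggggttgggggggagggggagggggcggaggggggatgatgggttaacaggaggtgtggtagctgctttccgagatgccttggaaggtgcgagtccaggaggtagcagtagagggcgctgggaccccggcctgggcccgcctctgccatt
Dvl2: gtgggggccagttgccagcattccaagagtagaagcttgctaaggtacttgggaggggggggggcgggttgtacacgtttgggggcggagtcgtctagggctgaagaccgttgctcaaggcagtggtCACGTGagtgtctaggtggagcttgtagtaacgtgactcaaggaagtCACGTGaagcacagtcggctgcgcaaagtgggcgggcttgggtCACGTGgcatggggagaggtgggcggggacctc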

How the data were processed

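RNA-seq of dermis with hair follicles was compared between 4 AP and 4 VC libraries. The authors aligned cleaned reads to mm10 with STAR, counted them per gene (featureCounts in the methods, HTSeq in the submitters' processing notes) and normalized them with DESeq2. The deposited signal values are gene counts divided by 1 size factor per library, and all 150160 were whole multiples (tolerance 0.01 reads) of 1 step per library, so reads were recovered. The table's 6 columns of the authors' comparison (mean, log2 fold change, its error, test statistic, p-value and adjusted p-value) were not used.

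limma 3.58.1 in R 4.3.3 was fitted to log2(value + 1) without covariates, keeping the 15964 genes at 3 or more normalized counts in 4 or more libraries. Single values were compared by two-sided exact permutation. edgeR 4.0.16 and DESeq2 1.42.0 on recovered reads, limma-voom, other scalings, pseudocounts of 0.5 and 5, other filters, a loess correction for transcript length (span 0.3), drawing down to 3080758 reads and leaving out each library were alternatives. Scaling by total reads without mitochondrially encoded genes was chosen after seeing the data. Coordinates and lengths came from GENCODE M21. The limma fit was tested on simulated counts with 200 genes changed. Members and lists were chosen with earlier results of these data known. Named are all members, list genes with an adjusted p under 0.05 (otherwise the most abundant of the list) and the 3 profiles closest to each called member. Counts of a few reads carry a counting error beside the spread between mice, and 3 reads correspond to 4.10 to 5.63 normalized counts in VC libraries and 1.49 to 2.18 in AP libraries.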

Additional observations from a re-analysis of the deposited data

Results flagged for a closer look

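A library far from the other 3 of its group was looked for in 90 groups of 4 values, and 4 were found, where chance gives about 1 in 20 groups. Ror2 was low in AP.4, at 6.00 on the log2(normalized count + 1) scale. Without AP.4 the log2 fold change of Ror2 was 0.67 (adjusted p = 0.235, over alternatives from 0.00492 to 0.540), against 0.51 with all libraries and 0.27 without VC.2. Vangl2 minus Vangl1 was low in AP.1, at -0.10, and without AP.1 the difference between the groups was -0.22, against -0.38 with it. The mean log2 level of the dermal papilla markers was high in AP.3, at 7.31, and still below the lowest VC library. Acadvl, the gene that overlaps Dvl2, was high in AP.1, at 9.69, the AP library in which Dvl2 was also highest.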

How the results depend on the processing

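Counts use an adjusted p under 0.05. Among all genes tested, 1011 were higher and 639 lower, against 8670 and 65 with scaling by total reads, 376 and 216 without the intensity trend, 1677 and 1362 with DESeq2, and 580 and 531 with the transcript length trend removed. With a library left out, the counts were 211 to 1061 higher and 96 to 812 lower, lowest without AP.3. Without AP.2 they were 385 and 155, without AP.4 257 and 147, and without VC.1 584 and 255. Upper-quartile factors gave 890 and 892. Of the members, 2 were higher and 0 lower. It was 1 higher with a pseudocount of 0.5, no filter, upper-quartile factors, scaling by total reads without mitochondrially encoded genes, limma-voom or edgeR, 0 without the intensity trend, 8 with scaling by total reads, and 0 higher and 1 lower (Dvl2) with the length trend removed. Leaving out a library gave 0 to 3 higher members, with 0 without AP.2, AP.3 or AP.4 (limma, fewer samples).

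Among the lists, scaling by total reads gave 6 other core genes, 10 effectors, 3 Fat and Dachsous genes, 11 calcium branch genes and 10 regulators higher, and 0 calcium branch genes and 0 regulators lower. Without the intensity trend, 0 ligands, 0 effectors, 0 Fat and Dachsous genes and 1 regulator were higher, and 0 calcium branch genes and 1 regulator lower. With the length trend removed, 1 ligand, 0 effectors, 0 Fat and Dachsous genes and 1 regulator were higher. DESeq2 gave 2 other core genes, 3 effectors and 2 Fat and Dachsous genes higher and 1 effector lower. Drawing reads down gave 1 ligand, 2 Fat and Dachsous genes and 1 regulator higher. A pseudocount of 5 gave 1 other core gene and 2 Fat and Dachsous genes, TMM factors and edgeR 1 other core gene each, limma-voom 0 ligands, and the study's thresholds 2 other core genes and 2 Fat and Dachsous genes. Leaving out a library gave 0 to 2 ligands, 0 to 1 other core genes, 0 to 3 effectors, 0 to 2 Fat and Dachsous genes and 0 to 3 regulators higher, and 0 to 1 effectors, 0 to 3 calcium branch genes and 0 to 2 regulators lower.

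Signs changed for Ryk (0.79), Prickle1 (0.81), Dvl2 (0.47) and Nkd1 (0.11) with scaling by total reads, which shifts all genes. Relative to the all-gene median under that scaling, these genes stood at -0.11, -0.09, -0.43 and -0.79. Signs also changed for Ptk7 with upper-quartile factors (-0.046), reads drawn down (-0.030) and the length trend removed (-0.15). The same held for Scrib with the length trend removed (-0.016) and for Prickle1 with edgeR (0.051) and DESeq2 (0.061). Leaving out a library gave -0.13 to 0.11 for Ptk7, -0.36 to 0.28 for Prickle1 and -0.64 to 0.028 for Vangl2 minus Vangl1. Fits without a library hold fewer samples, and otherwise the cause was not tested. Celsr1 and Celsr2 were above 0 in all 22 alternatives. Ror1 minus Ror2 and Celsr1 minus Celsr2 kept their direction in the 11 alternatives run for them. Ror1, at 8 to 22 reads per VC library, is the member whose precision depth limits most.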
